A study of Mus musculus with 14 samples.

Results

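The genes described here encode the nuclear subunits of the 5 oxidative phosphorylation complexes, taken as every gene of the deposited table whose symbol begins with Ndufa, Ndufb, Ndufc, Ndufs or Ndufv and a digit, is Sdha, Sdhb, Sdhc or Sdhd, or begins with Uqcr, with Cox4 to Cox8, or with Atp5. The rule found 76 of 14449 genes: 36 for complex I, 4 for complex II, 8 for complex III, 11 for complex IV and 17 for complex V. With CPM, a gene's reads scaled to a common library total as deposited, above 1 in 3 or more libraries, 74 of the 76 were tested, among 12329 genes in all. RNA came from CD4+ Foxp3eGFP+ regulatory T cells, sorted at postnatal day 35 from the lymph nodes of BALB/c mice that were wild type (7 libraries) or Il1rn-/- (7 libraries), the latter without the IL-1 receptor antagonist. Titles place 3 libraries of each genotype in a set a and 4 of each in a set b, letters that the labels leave unexplained. All cells of both genotypes carry the Foxp3 reporter, and sex is not given in the sources used here. Nothing in the labels says that libraries came from separate animals, so each p-value measures the spread between libraries, which may be technical.

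Oxidative phosphorylation passes electrons from NADH and succinate through complexes I to IV to oxygen, and complex V, the ATP synthase, uses the proton gradient that results to make ATP. Each complex except complex II joins nuclear subunits, which are the genes counted here, to subunits encoded in mitochondrial DNA. Regulatory T cells are known to rely on mitochondrial respiration more than conventional effector T cells do.

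The symbol rule follows names, not structures. Ndufa4 was counted with complex I although its product is known as a complex IV subunit, Cox7a2l encodes a supercomplex assembly factor, Atp5s a factor that is not a structural subunit, and Atp5c1-ps is named as a pseudogene. The 2 genes below the level filter were Uqcr11, the smallest complex III subunit, with 3 reads in wild-type 3-a, 2 in Il1rn-/- 1-a and 0 elsewhere, and Atp5c1-ps, with 0 to 5 reads per library. Of 18 genes in a list of isoform pairs, 11 were among the genes of the table; Cox4i2, Cox6a2, Cox6b2, Cox7a1, Cox7b2, Cox8b and Ndufa4l2 were not analysed here, nor were the mitochondrially encoded subunits.

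The libraries fell into groups that cross the genotypes. Rn45s, which encodes the ribosomal RNA precursor, held 59.6% to 65.8% of all reads in 6 libraries, called shallow here (all 4 wild-type libraries of set b with Il1rn-/- 1-b and Il1rn-/- 2-b), and 20.3% to 39.95% in the other 8, called deep (the 6 of set a with Il1rn-/- 3-b and Il1rn-/- 4-b). Reads in genes numbered 952021 to 3756559 per library, and reads in the 76 subunit genes 4402 to 10956 in the shallow and 13362 to 26911 in the deep libraries. The shallow libraries include 2 of 7 Il1rn-/- and the deep ones 5 of 7, so each genotype difference below is given with the letter as a term, with the library group as a term and within each library group. Il1rn was not among the genes of the table, so it could not check the labels. Regulatory T cell markers (7 of 7 in the table, Foxp3 and Il2ra among them) summed to 1651 to 2749 CPM in wild-type and 1701 to 2762 in Il1rn-/- libraries. The 5 B cell markers summed to 23.7 to 66.1 and 16.8 to 61.4 CPM, the 4 monocyte and macrophage markers found to 8.13 to 13.5 and 1.93 to 22.8, the 3 plasma cell markers to 80.2 to 144 and 30.1 to 158, and the 4 CD8 T and NK markers found to 27.1 to 76.1 and 34 to 61.6. Most of the plasma cell sum came from Xbp1, with 84 to 456 reads per library. Jchain had 0 to 27 reads, with 0 in 8 libraries, and Sdc1 0 to 9, with 0 in 9. The 3 dendritic cell markers found reached at most 4.94 CPM and the 2 of red cells and platelets at most 4.08. Y-linked transcripts had 374 to 808 reads in wild-type 1-a, wild-type 2-a, Il1rn-/- 3-b and Il1rn-/- 4-b, all of them deep, and 0 to 2 in the other libraries.

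Subunits of complexes III, IV and V were more abundant per length than those of complexes I and II. On the log2 CPM per kilobase scale, which divides by the median length of a gene's reference transcripts, the median level over the 14 libraries was 5.19 for complex I, 5.39 for complex II, 6.11 for complex III, 6.22 for complex IV and 6.25 for complex V. The ranges of members overlapped in every pair of complexes, for example 1.58 to 6.65 in complex I and 1.94 to 8.35 in complex V. The highest level per length was that of Uqcrc1, a core protein of complex III, at 8.79 ± 0.27 (mean ± SD over the 14 libraries, here and in the next sentences). Next came Atp5b, the catalytic beta subunit of the ATP synthase, at 8.35 ± 0.30. Cox4i1, the ubiquitous form of the regulatory subunit IV, was at 8.30 ± 0.41, and Atp5c1, the central gamma subunit, at 8.01 ± 0.32. Their ranges of mean ± SD overlapped, and differences between genes within libraries were not tested. In complex I the highest were Ndufa4 at 6.64 ± 0.36 and Ndufs1, the large iron-sulfur subunit, at 6.62 ± 0.31, again with overlapping ranges of mean ± SD. In complex II the catalytic Sdha stood at 6.99 ± 0.14 and the iron-sulfur subunit Sdhb at 6.55 ± 0.22, above the membrane anchors Sdhc at 4.22 ± 0.55 and Sdhd at 1.88 ± 0.62. The first rank of Uqcrc1 rests on a median transcript length of 533 bases, against 1916 for Atp5b. Undivided by length, Uqcrc1 lay at 7.40 to 8.22 log2 CPM, below Atp5b at 8.99 to 10.1. Which reference transcripts the cells expressed was not determined, so ranks per length are uncertain.

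No subunit gene passed the test between genotypes. At an adjusted p under 0.05 by limma, 0 of 74 passed in either direction, as did 0% of the 12329 genes tested. Only Atp5h had an unadjusted p under 0.05, 1 of 74 against 5.51% of all genes, and limma voom on recovered reads also called 0. The log2 differences (Il1rn-/- minus wild type) were negative for 57 subunit genes and positive for 17, with a median of -0.15, against 44.7% negative and a median of 0.04 over all genes tested. Scaled to the reads outside Rn45s, 64 were negative and 10 positive with a median of -0.26, against 57.7% negative over all genes, and 0 were called (0% of all genes). With the deposited scaling, the median was -0.12 in complex I (28 of 36 negative), -0.12 in complex II (3 of 4), -0.04 in complex III (4 of 7), -0.24 in complex IV (10 of 11) and -0.23 in complex V (12 of 16). In no subunit gene did the 7 Il1rn-/- libraries lie wholly above or below the 7 wild-type ones, as in 0.00811% and 0.0243% of all genes. In bulk RNA, fewer cells expressing a gene and less RNA per cell cannot be told apart.

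The balance of signs differed between fits and between the library groups. With that group in place of the letter, 37 differences were positive and 37 negative (45.6% of all genes), 0 were called (0% of all genes), the median was 0.0005, and the complex medians ran from -0.05 in complex IV to 0.06 in complex III, where all 7 were positive. Within the 8 deep libraries 67 of 74 were positive (52.6% of all genes) with a median of 0.18, and within the 6 shallow libraries 63 of 74 were negative (47.4% of all genes) with a median of -0.23. Neither split called a subunit gene by limma, against 0.00811% of all genes in each direction in the deep and 0.105% higher and 0% lower in the shallow libraries, and 0 and 7 subunit genes had an unadjusted p under 0.05 (2.86% and 4.3% of all genes). Leaving out wild-type 2-a ended the positive majority in the deep libraries, and leaving out Il1rn-/- 3-b made it smaller. Without wild-type 2-a 30 were positive and 44 negative with a median of -0.04, and without Il1rn-/- 3-b 45 were positive and 29 negative with a median of 0.06. Leaving out each library in turn gave 12 to 57 negatives with the library group as a term. Within the shallow libraries it gave 53 to 64, so the negative majority there stayed.

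**Figure D1:**
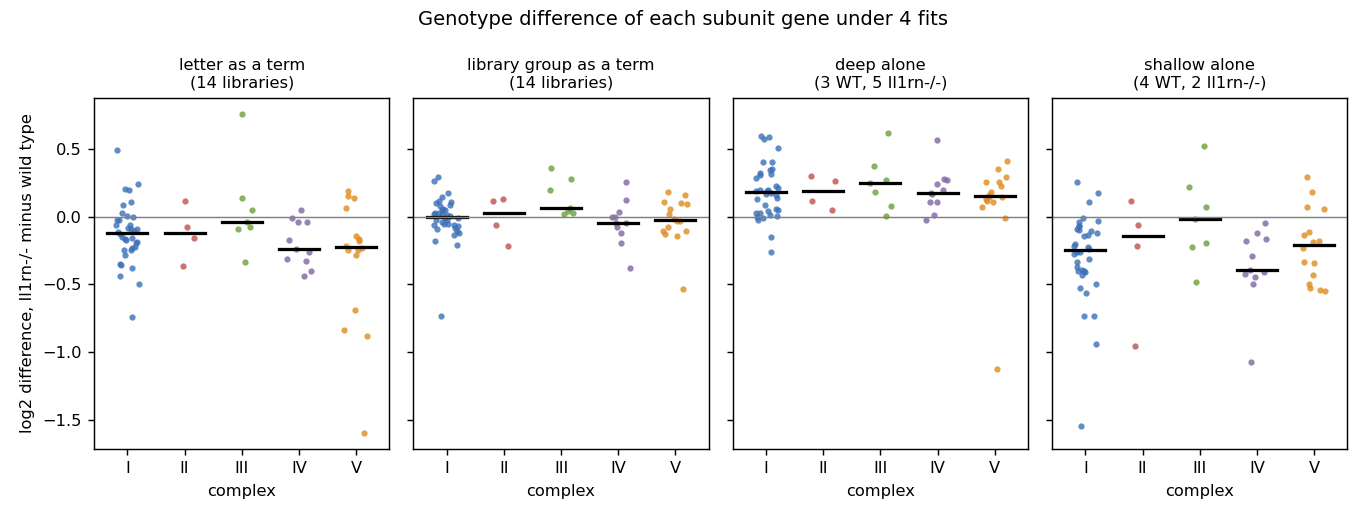
Log2 difference between Il1rn-/- and wild type (vertical axis) for each of the 74 tested subunit genes, by complex (horizontal axis), under 4 fits, with black bars at the complex medians. The medians lie at or below 0 with the letter as a term, near 0 with the library group as a term, above 0 in the deep libraries and below 0 in the shallow ones.

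Complex I takes electrons from NADH, and none of its core subunits passed the test between genotypes. Ndufv1, which binds NADH, was at 5.57, 6.36 and 6.91 log2 CPM in wild type (lowest, median, highest of 7 libraries, here and below) and at 5.62, 5.94 and 6.67 in Il1rn-/-. The ranges overlapped almost entirely, and the difference was -0.20 ± 0.16 (estimate ± SE, here and below), and its 95% confidence interval ran from -0.52 to 0.13. The iron-sulfur subunits Ndufs1 and Ndufv2 differed by 0.24 ± 0.15 and -0.09 ± 0.16, each with an adjusted p of at least 0.787 by limma. The smallest unadjusted p in the complex belonged to Ndufs3, a core subunit of the matrix arm (-0.38 ± 0.20), then to the membrane-arm subunits Ndufb3 (-0.50 ± 0.29) and Ndufb4 (-0.74 ± 0.44), and to Ndufs1. With the library group as a term these differences were -0.04 for Ndufs3, -0.12 for Ndufb3, -0.01 for Ndufb4 and 0.11 for Ndufs1. The widest interval was that of Ndufs5, a small subunit on the intermembrane side with 0 to 35 reads per library, at -1.90 to 1.85, so differences inside that range were not detectable at this depth.

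Complex II, the succinate dehydrogenase, held the steadiest member. Sdha was at 7.62, 7.82 and 7.92 log2 CPM in wild type and at 7.63, 7.95 and 8.07 in Il1rn-/-, a difference of 0.11 ± 0.12, whose 95% confidence interval ran from -0.14 to 0.37. Every Sdha value lay within a narrow band in both genotypes, and the difference was also 0.11 with the library group as a term, in the deep libraries alone and in the shallow libraries alone. Sdhb differed by -0.08 ± 0.14, Sdhc by -0.16 ± 0.22 and Sdhd, with 4 to 21 reads per library, by -0.36 ± 0.34. Of these, Sdhc differed by 0.13 with the library group as a term and Sdhd by -0.22.

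Complex III passes electrons from ubiquinol to cytochrome c. Its core proteins Uqcrc1 and Uqcrc2 differed by -0.07 ± 0.13 and 0.14 ± 0.13 between genotypes, and Uqcrfs1, the Rieske iron-sulfur protein, by -0.04 ± 0.14. The small subunits spread more widely. Uqcrb, a small matrix-side subunit, differed by -0.34 ± 0.27 (0.06 with the library group as a term). Uqcrq, another small subunit, differed by 0.76 ± 0.45 (0.36). The positive value for Uqcrq leaned on wild-type 3-b, where it had 1 read (0.32 log2 CPM) while the other 6 wild-type libraries stood at 2.74 to 4.53. Without that library it was 0.32.

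Complex IV, cytochrome c oxidase, had the most one-sided signs and 10 of 11 negative differences. Cox6a1, the non-muscle form of subunit VIa, was at 3.86, 5.54 and 6.29 log2 CPM in wild type and at 4.31, 4.48 and 5.64 in Il1rn-/-, a difference of -0.44 ± 0.22. Its wild-type values split, with the 3 deep libraries at 3.86 to 4.79 and the 4 shallow ones at 5.54 to 6.29. It differed by -0.08 with the library group as a term. Cox7b (-0.40 ± 0.21), Cox8a (-0.32 ± 0.21) and Cox5b (-0.32 ± 0.21), small nuclear subunits, became -0.05, -0.12 and -0.004 with that term. The isoform genes Cox4i1, Cox6b1 and Cox7a2 differed by -0.01 ± 0.20, -0.04 ± 0.23 and -0.04 ± 0.33, and Cox7a2l by -0.24 ± 0.26. Cox5a, the partner of subunit IV, differed by -0.18 ± 0.20, and Cox7c, the only positive member, by 0.05 ± 0.50.

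Complex V held 4 of the 5 largest negative differences, all in genes that separated the library groups. Atp5h, the d subunit of the peripheral stalk, was at 4.19, 6.28 and 7.05 log2 CPM in wild type and at 4.00, 4.75 and 6.56 in Il1rn-/-. The genotypes overlapped over most of the range, and the difference was -0.69 ± 0.30 (unadjusted p 0.03465, adjusted p 0.787 by limma) and -0.10 with the library group as a term. Atp5g2 and Atp5g1, genes of the proton-carrying c subunit, differed by -1.60 ± 0.85 and -0.84 ± 0.42, and Atp5l, the g subunit of the membrane part, by -0.88 ± 0.47. With the library group as a term they differed by 0.06, -0.03 and 0.02. Leaving out Il1rn-/- 4-b alone moved the 4 values with the letter term to -0.40 for Atp5h, -0.84 for Atp5g2, -0.46 for Atp5g1 and -0.51 for Atp5l. The alpha, beta and gamma subunits of the catalytic head differed by 0.14 ± 0.16 for Atp5a1, 0.19 ± 0.18 for Atp5b and 0.15 ± 0.17 for Atp5c1.

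Large differences lay between the library groups. With genotype in the model, 30 of 74 subunit genes were lower and 6 higher in the deep than in the shallow libraries at an adjusted p under 0.05 by limma, against 16.1% lower and 20% higher over all genes. The median over subunit genes was -0.48, and over all genes 0.12. By complex it was -0.49 in complex I (12 lower, 4 higher), -0.28 in complex II (1 lower), -0.38 in complex III (3 lower, 1 higher), -0.71 in complex IV (6 lower, 1 higher) and -0.45 in complex V (8 lower). Short genes in general were also lower in the deep libraries. With transcripts under 600 bases the median was -0.524 over 26 subunit genes and -0.157 over all 386 genes. At 600 to 1000 bases it was -0.389 (30 genes) and -0.132 (1626), and over 1000 bases -0.466 (18) and 0.133 (9199). The 8 deep libraries lay wholly below the 6 shallow ones in 14 subunit genes (6.56% of all genes) and wholly above in 1, Ndufa12 (8.35% of all genes). Scaling to the reads outside Rn45s in place of the deposited scaling gave 47 lower and 5 higher, against 21.5% and 13.4% of all genes. Together the 76 genes took 1.11% to 1.34% of the reads outside Rn45s in the shallow and 0.675% to 0.968% in the deep libraries, ranges that did not overlap. Cell type markers also differed in level between the library groups, and their part in this was not tested. The summed CPM of the regulatory T cell markers had a median of 2025 in the deep and 2679 in the shallow libraries (1651 to 2468 and 2272 to 2762). For CD8 T and NK markers it was 37.8 and 62.2 (27.1 to 47.3 and 40.7 to 76.1), for plasma cell markers, mostly Xbp1, 86.7 and 137 (30.1 to 123 and 99.9 to 158), and for B cell markers 49.3 and 26.7 (16.8 to 66.1 and 17.2 to 56.5).

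**Figure D2:**
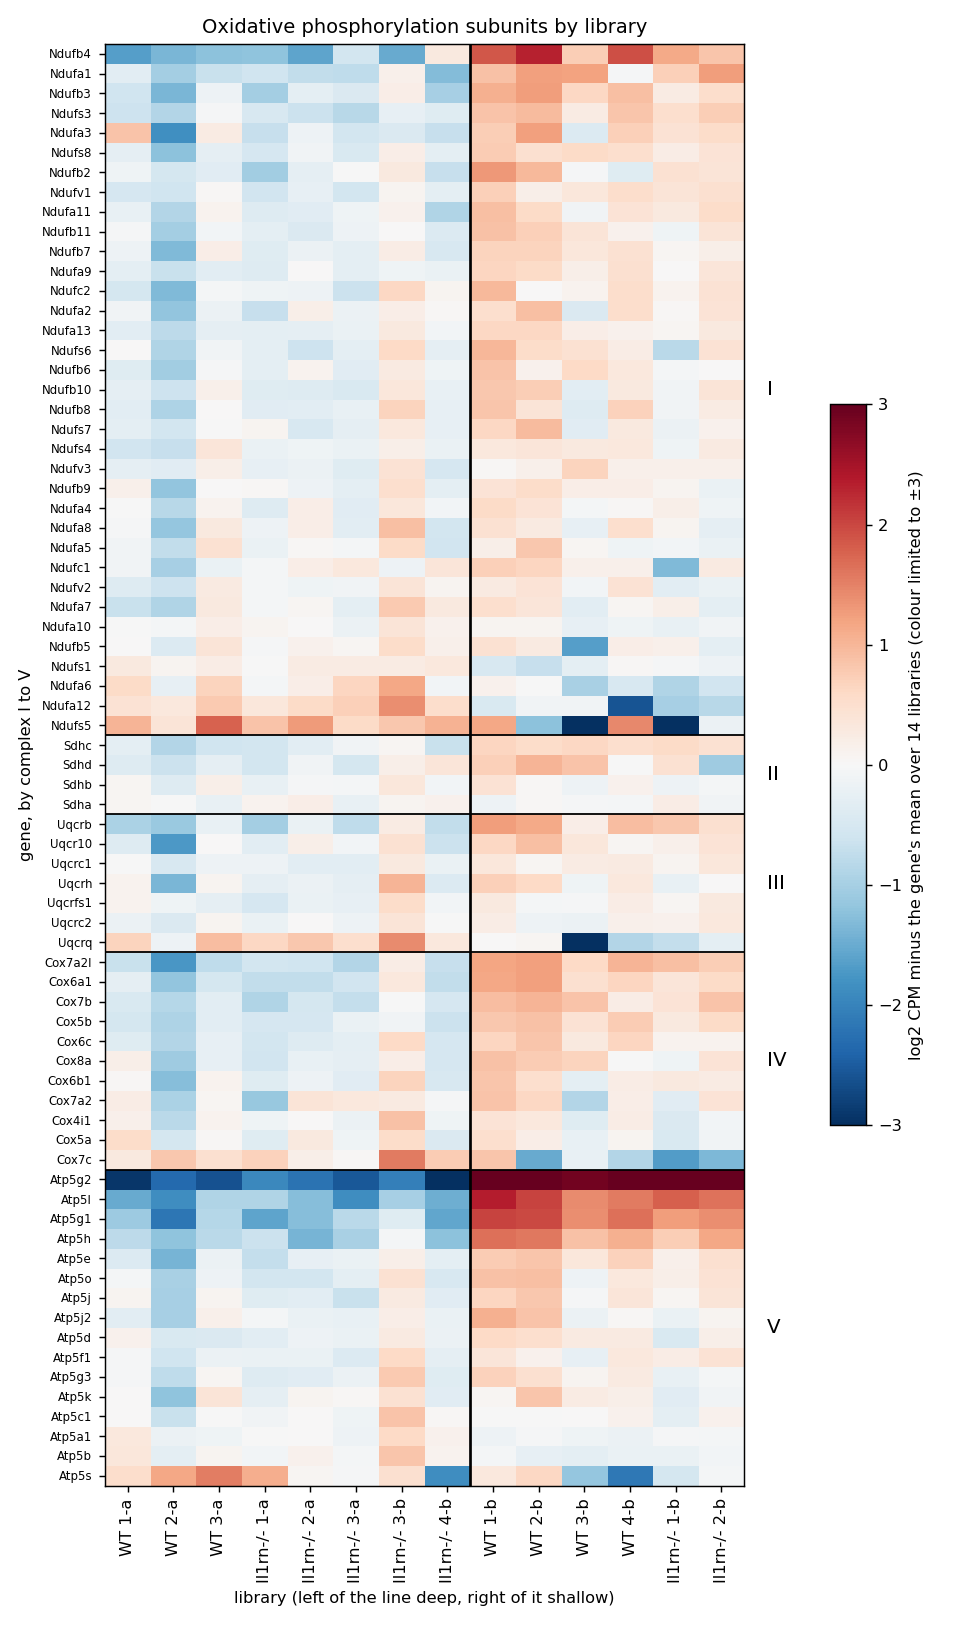
Log2 CPM of the tested subunit genes, all but 1 of the 74, minus each gene's mean over the 14 libraries (colour, limited to 3 either way, a limit that Atp5g2, Ndufs5 and Uqcrq pass in some library), with genes by complex on the vertical axis and libraries on the horizontal axis, deep left of the line and shallow right of it. Most genes are bluer in the deep libraries, and Ndufs5, Ndufa12, Uqcrq and Cox7c go the other way.

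The 3 largest falls in the deep libraries were those of Atp5g2, Atp5l and Atp5g1, of the membrane part of complex V, followed by Ndufb4 of complex I and Atp5h of the stalk. Atp5g2 stood at 0.52, 1.30 and 1.81 log2 CPM in the deep libraries (lowest, median, highest of 8) and at 6.64, 7.04 and 7.36 in the shallow ones, 4 to 16 reads against 86 to 252. No value came near the other group, and the difference was -5.80 ± 0.23 (adjusted p 5.55e-13 by limma). Atp5l differed by -3.15 ± 0.24, Atp5g1 by -2.82 ± 0.26 and Atp5h by -2.04 ± 0.21. Smaller falls in complex V were those of Atp5e, the epsilon subunit (-0.98), Atp5o, which links the stalk to the catalytic head (-0.75), Atp5j, coupling factor 6 (-0.63), and Atp5f1, the b subunit (-0.42). In contrast, Atp5a1, Atp5b and Atp5c1 differed by 0.14 ± 0.14, 0.28 ± 0.16 and -0.04 ± 0.17 and did not pass.

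In complex I the lower members in the deep libraries were Ndufb4 (-2.57 ± 0.38), Ndufa1, a small membrane-arm subunit (-1.55 ± 0.25), Ndufb3 (-1.32), Ndufs3 (-1.19), Ndufs8, an iron-sulfur subunit (-0.89), Ndufv1 (-0.78), and Ndufa11, Ndufc2, Ndufb7, Ndufb11, Ndufa9 and Ndufa13, supernumerary subunits, at -0.76 to -0.59. Higher there were Ndufs5 (2.46 ± 0.84), Ndufa12, a supernumerary subunit of the matrix arm (1.46 ± 0.41), Ndufa6, which belongs to the same arm (0.87 ± 0.25), and Ndufs1 (0.44 ± 0.13). Ndufa12 had 16 to 37 reads in the deep and 1 to 5 in the shallow libraries, and Ndufs5 had 10 to 35 and 0 to 9. Ndufs5 was at 0 reads in wild-type 3-b and Il1rn-/- 1-b, so its fitted size depends on the prior count, and without Il1rn-/- 1-b it was 1.58.

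In complexes II to IV, Sdhc was lower in the deep libraries (-1.02 ± 0.18) while Sdha (-0.003 ± 0.11) and Sdhb (-0.05 ± 0.14) did not pass. Uqcrb (-1.41 ± 0.25), Uqcr10, a small subunit (-0.81 ± 0.28), and Uqcrc1 (-0.40 ± 0.13) were lower and Uqcrq was higher (1.39 ± 0.42). In complex IV, Cox7a2l stood at 5.88, 6.94 and 7.84 log2 CPM in the deep and at 8.22, 8.59 and 8.87 in the shallow libraries, a difference of -1.73 ± 0.21. Its paralog Cox7a2 differed by -0.26 ± 0.34 and did not pass. Cox6a1 (-1.28), Cox7b (-1.24), Cox5b (-1.09), Cox6c (-0.75) and Cox8a (-0.71) were also lower, Cox7c was higher (1.51 ± 0.41), and the subunits Cox4i1 (-0.02 ± 0.21) and Cox5a (0.06 ± 0.20) did not pass.

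Only Il1rn-/- set b holds both library groups within 1 genotype and letter, with 2 deep and 2 shallow libraries. The 2 deep ones held 374 and 503 Y-linked reads and the 2 shallow ones 1 and 2. Library group and sex therefore cannot be told apart in that set. There 7 subunit genes were lower and 1 higher in the deep libraries by limma, against 6.07% and 5.99% of all genes, and the median was -0.05 with 38 of 74 negative (47.5% of all genes). The lower ones were Atp5g2 (-5.82), Atp5l (-2.94), Atp5g1 (-2.30), Atp5h (-1.60), Ndufa1 (-1.56), Cox7a2l (-1.07) and Ndufs3 (-0.93), and the higher one Cox7c (2.68). The difference in Atp5g2 was as large within that set, while the overall lower level of the subunits was not seen there, with Il1rn-/- 3-b as 1 of its 2 deep libraries.

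The c subunit gives the clearest contrast within a family, since Atp5g1, Atp5g2 and Atp5g3 encode the same mature protein. Atp5g3 stood at 5.79, 6.30 and 7.35 log2 CPM in the deep and at 6.33, 6.74 and 7.26 in the shallow libraries, overlapping ranges with a difference of -0.32 ± 0.20 (adjusted p 0.2262 by limma). Atp5g1 stood at 2.02, 3.00 and 3.83 against 5.45, 5.71 and 6.23, with no overlap. Per length, Atp5g2 was at 7.59 ± 0.28 log2 CPM per kilobase in the shallow libraries (SD, n = 6), next to Atp5g3 at 7.24 ± 0.35 and above Atp5g1 at 4.39 ± 0.33. In the deep libraries (SD, n = 8) Atp5g3 led at 6.88 ± 0.46, with Atp5g2 at 1.81 ± 0.44 and Atp5g1 at 1.55 ± 0.56 on this scale. The low levels of Atp5g1 per length rest on a median transcript length of 2676 bases, against 683 for Atp5g2. Their coding lengths are 408 and 438. Undivided by length, Atp5g1 at 2.02 to 3.83 log2 CPM lay above Atp5g2 at 0.52 to 1.81 in the deep libraries. The order of the 3 genes thus differed between library groups, and only the ranges of Atp5g3 overlapped. The first 120 of the last 225 coding bases, the stretch of the mature protein, are shown because the genes differ there only at scattered bases. They are taken from the GENCODE M21 transcripts (Atp5g1 on chromosome 11, Atp5g2 on 15, Atp5g3 on 2), 5′ to 3′, with capitals at the 29 positions where the 3 genes are not all alike.
Atp5g1: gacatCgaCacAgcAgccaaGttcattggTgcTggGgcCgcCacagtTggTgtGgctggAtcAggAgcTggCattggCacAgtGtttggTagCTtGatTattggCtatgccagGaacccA
Atp5g2: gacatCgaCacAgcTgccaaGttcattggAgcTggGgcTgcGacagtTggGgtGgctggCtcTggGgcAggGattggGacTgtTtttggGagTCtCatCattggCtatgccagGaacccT
Atp5g3: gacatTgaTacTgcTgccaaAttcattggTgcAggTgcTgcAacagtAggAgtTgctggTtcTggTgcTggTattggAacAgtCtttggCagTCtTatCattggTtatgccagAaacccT
Over the 225 bases Atp5g1 and Atp5g2 were 84.9% identical with a longest identical run of 20 bases, Atp5g1 and Atp5g3 80% with a run of 11, and Atp5g2 and Atp5g3 78.7% with a run of 8. No stretch of 32 bases was thus shared between them within these 225 bases.

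**Figure D3:**
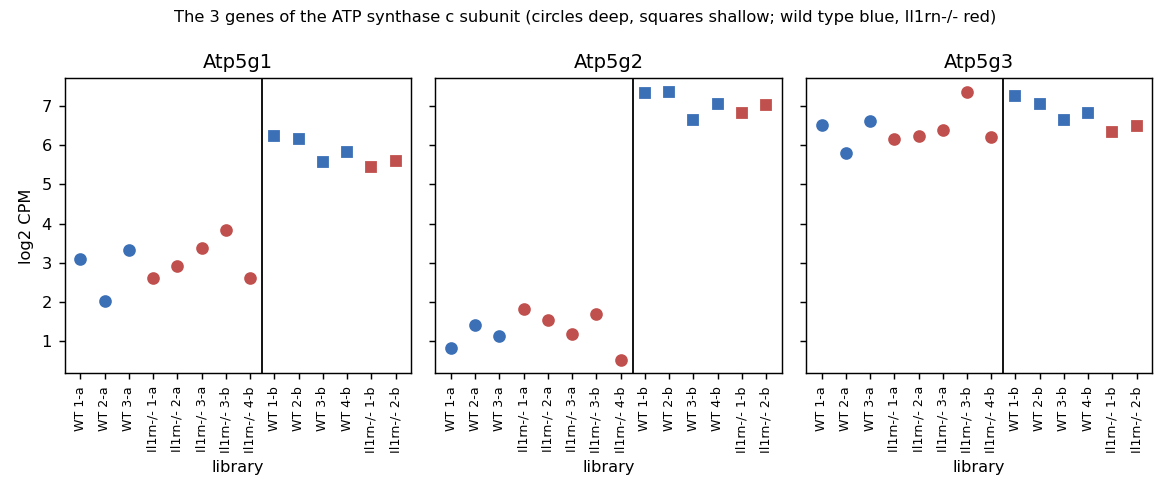
Log2 CPM (vertical axis) of Atp5g1, Atp5g2 and Atp5g3 in each of the 14 libraries (horizontal axis), deep libraries as circles left of the line and shallow ones as squares right of it, wild type in blue and Il1rn-/- in red. Atp5g2 lies at 0.52 to 1.81 in the deep and at 6.64 to 7.36 in the shallow libraries, and Atp5g3 overlaps between them.

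Many of the members that moved share sequence with genes elsewhere in the genome. The share of a gene's 32-base stretches that also occur in a reference transcript of a gene over 10 kb away was 37.4% for Atp5g2, 31.99% for Uqcrb, 26.2% for Ndufs5, 25.1% for Atp5h, 24.4% for Cox7c and 22.3% for Ndufs3, and 0% for Atp5g3, Sdha, Sdhb and Atp5a1. Of the 19 tested subunit genes with a share over 10%, 14 were lower and 3 higher in the deep libraries, 89.5% called against 66.5% of the 1291 genes in the table with such a share. Their median was -1.19, and -0.19 over those 1291 genes. Of the 34 with a share up to 10%, 12 were lower and 1 higher (38.2% against 33.5%) with a median of -0.44, and of the 21 with none, 4 were lower and 2 higher (28.6% against 30.1%) with a median of -0.32. Members of high share went both ways, as Ndufs5, Ndufa12 and Cox7c show beside Atp5g2 and Uqcrb. The copies themselves could seldom be read, since the closest copy was among the genes of the table for 3 of 21 members with a share over 10%. Gm10175, the closest copy of Atp5g2, had 2 to 11 reads in the deep and 0 to 1 in the shallow libraries. BC002163, the closest copy of Ndufs5, had 0 to 9 and 0 to 1. How reads shared between copies were assigned is not given in the sources used here, the values of these members are uncertain to that extent, and its part in the differences was not tested.

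**Figure D4:**
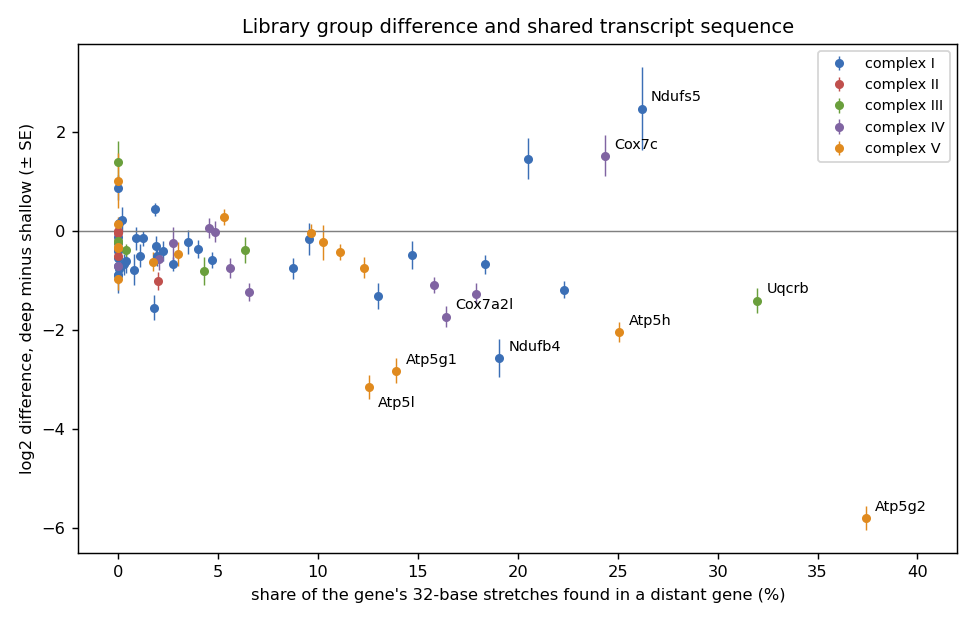
Log2 difference between deep and shallow libraries (vertical axis, bars 1 SE) against the share of a gene's 32-base stretches found in a distant gene (horizontal axis, percent) for the 74 tested subunit genes, coloured by complex. Atp5g2 lies lowest at the highest share, Ndufs5, Cox7c and Ndufa12 lie above 0, and genes with no shared stretch lie mostly within 1 log2 unit of 0.

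Within each library group single libraries moved the subunit genes together. Among the 8 deep libraries wild-type 2-a was the lowest in 59 of 74 subunit genes, against 17.4% of all genes, and Il1rn-/- 3-b the highest in 60 of 74, against 18.6%. On the log2 scale the median deviation of the subunit genes from their deep mean was -0.557 in wild-type 2-a and 0.549 in Il1rn-/- 3-b, while the other 6 deep libraries lay between -0.108 and 0.192. Among the 6 shallow libraries wild-type 1-b was the highest in 36 (18.1% of all genes) and wild-type 2-b in 26 (16%), and Il1rn-/- 1-b was the lowest in 28 (15.7%) and wild-type 3-b in 25 (23%).

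**Figure D5:**
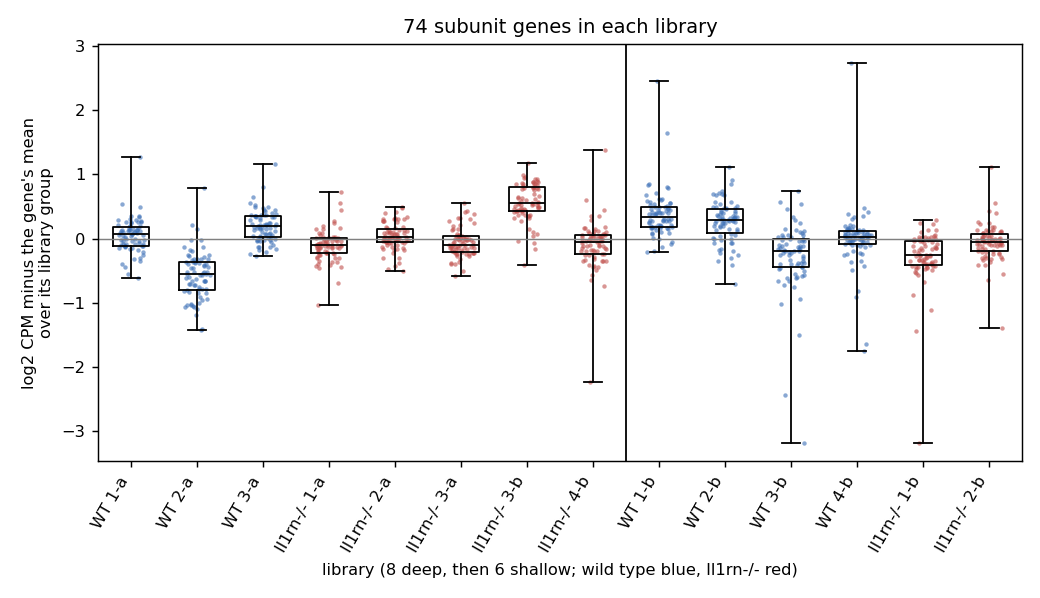
Log2 CPM of each of the 74 subunit genes minus the gene's mean over its library group (vertical axis), for each library (horizontal axis), 8 deep then 6 shallow, wild type in blue and Il1rn-/- in red; boxes show the median and quartiles, with whiskers to the lowest and the highest gene. Wild-type 2-a is the lowest of the deep libraries and Il1rn-/- 3-b the highest.

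Transcript length went along with this pattern in part. For the 26 subunit genes with transcripts under 600 bases the median deviation was -0.736 in wild-type 2-a and 0.713 in Il1rn-/- 3-b, and for all 386 genes of that length -0.283 and 0.261. For the 18 subunit genes over 1000 bases it was -0.366 and 0.520, where all 9199 genes of that length stood at 0.059 and -0.061. So by these lengths short genes in general moved with the subunits. The long subunits moved in the same directions, while long genes in general had small medians of the opposite sign. The lengths are medians over reference transcripts, so the division is approximate. It puts Uqcrc1 (533 bases) among the short genes. Ndufb2 (2413) and Atp5g1 (2676, with a coding length of 408) are among the long ones. Il1rn-/- 3-b also had the largest share of mt-Rnr2, a mitochondrial ribosomal RNA, at 16.2% of reads outside Rn45s, against 8.68% to 11.2% in the other deep libraries, with wild-type 2-a at 8.68%, the smallest. The shallow libraries, where the subunits were higher, held only 2.82% to 4.01%, and among them wild-type 1-b was at 2.92% and Il1rn-/- 1-b at 3.796%, so this order did not go along with the subunits there. Whether RNA quality or mitochondrial content has a part in this was not tested.

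Within set a, where all 6 libraries are deep, 47 subunit genes differed positively and 27 negatively (46.7% of all genes) by genotype with a median of 0.06, and 0 were called by limma (0% of all genes, and 0 against 1.97% at an unadjusted p under 0.05). These counts turned on single wild-type libraries, with 62 negative without wild-type 2-a, 15 without wild-type 1-a and 14 without wild-type 3-a. Y-linked reads in set a were 609 in wild-type 1-a, 808 in wild-type 2-a and 0 elsewhere, so sex was not balanced between genotypes. Within set b 18 were positive and 56 negative (46.2% of all genes) with a median of -0.31, 0 were called, and 15 had an unadjusted p under 0.05 (15% of all genes). Without Il1rn-/- 2-b, which leaves 2 deep libraries and 1 shallow one in that genotype, 3 passed in set b by limma, against 0.917% of all genes higher and 0.949% lower: Atp5g2 (-4.09, adjusted p 0.04408), Atp5h (-1.48, adjusted p 0.04408) and Atp5g1 (-1.99, adjusted p 0.04651). With the library group added, the set b median was -0.23 with 0 called, against 0% of all genes higher and 0.0324% lower. The difference between the sets had a median of -0.42 with 0 called (0% of all genes), and -0.10 without wild-type 2-a.

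Between the letters themselves, with genotype in the model, 30 subunit genes were higher in set b and 0 lower, against 8.48% and 11% of all genes by limma, with a median of 0.55. Of complex I 13, 1 of complex II, 2 of complex III, 6 of complex IV and 8 of complex V made up the 30. Cox7a2l was higher by 1.52, Atp5h by 1.69 and Atp5g2 by 4.24. With the library group added, 0 passed (0.0487% of all genes in each direction), while 70 of 74 were positive (47.6% of all genes) with a median of 0.37. In that fit the letter can be told from the library group only through Il1rn-/- 3-b and 4-b, the deep libraries of set b. Il1rn-/- 3-b was the highest deep library in 60 of 74 subunit genes, so these signs do not describe the letters over 14 libraries. Without the library group term, the count called was 19 without wild-type 2-a, against 5.31% higher and 5.68% lower over all genes, and 39 without Il1rn-/- 4-b, against 12% and 15.3%, so the calls over all genes moved with it. The letters and the library groups divide the libraries alike except for Il1rn-/- 3-b and 4-b, so both comparisons rest on nearly the same libraries.

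Promoters were looked at because the members moved together within libraries. RefSeq windows of 300 bases, 250 before to 50 after the start (GRCm38.p6), were matched for 63 of the 74 tested subunit genes and 9509 of all tested genes, and searched on both strands. The core of the motif of nuclear respiratory factor NRF1, the first run of 10 capitals in both sequences printed below, was in the windows of 5 subunit genes (7.94%) and of 2.44% of all tested genes. CCGGAAG, an ETS core as bound by GABP, was in 15 (23.8% against 21.2%), and AAGATGG, a YY1 core, in 11 (17.5% against 8.76%). The 5 with the NRF1 core were Ndufa11, Uqcrc1, Cox6a1, Atp5g2 and Atp5k. These are matches of letters, not sites shown to be bound. Atp5g2, the member that differed most between library groups, and Cox6a1, which holds an NRF1 and an ETS core, are shown 5′ to 3′ on the minus strand, Atp5g2 at chr15:102670998-102671297 and Cox6a1 at chr5:115348909-115349208, with the matches in capitals.
Atp5g2: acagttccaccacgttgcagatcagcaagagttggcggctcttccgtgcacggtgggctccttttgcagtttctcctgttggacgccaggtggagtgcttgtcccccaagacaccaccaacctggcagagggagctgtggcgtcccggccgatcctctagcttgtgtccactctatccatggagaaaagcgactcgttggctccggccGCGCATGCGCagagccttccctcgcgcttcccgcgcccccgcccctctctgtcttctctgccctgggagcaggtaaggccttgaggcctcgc
Cox6a1: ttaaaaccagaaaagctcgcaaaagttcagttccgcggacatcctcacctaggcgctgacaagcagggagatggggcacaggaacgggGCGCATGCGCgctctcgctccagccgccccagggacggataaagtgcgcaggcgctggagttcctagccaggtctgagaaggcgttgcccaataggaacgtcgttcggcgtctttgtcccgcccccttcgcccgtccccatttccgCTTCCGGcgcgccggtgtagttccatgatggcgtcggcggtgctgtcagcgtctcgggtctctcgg

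Other genes of the pathway showed no genotype call either. Of 46 tested assembly factors, which build the complexes but are not part of them, 19 differed positively and 27 negatively (median -0.06), and 0 of 46 were called, nor were any of 14 citrate cycle enzymes (median -0.06), 12 transcriptional regulators (0.14) and 19 glycolysis genes (0.01), by limma. Cycs, the cytochrome c that carries electrons from complex III to IV, differed by -1.08 ± 0.51 (adjusted p 0.787 by limma) and by 0.004 with the library group as a term. In the deep libraries Cycs was lower (-3.78 ± 0.23, adjusted p 1.88e-10 by limma), and 29.2% of its 32-base stretches recur in distant genes. Of the assembly factors 12 were lower and 3 higher in the deep libraries, with a median of -0.42, close to that of the subunits. Atpaf1, a chaperone of the ATP synthase head, was at -3.64 ± 0.34 and Ndufaf5, a complex I assembly factor, at 1.73 ± 0.33. Citrate cycle enzymes gave 5 lower and 3 higher, regulators 3 and 2, and glycolysis genes 7 and 4, against the 16.1% and 20% of all genes given above.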

How the data were processed

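Smart-Seq2 libraries of sorted regulatory T cells went through Cuffquant 2.2.1 per the labels' protocols; Cuffnorm, Cufflinks 2.2.1, TopHat2 2.0.10 and BWA stand in the submitters' processing notes. Genome build, annotation, strand and the handling of shared reads: not given in the sources used here. The authors deposited log2 CPM, where the lowest value, -3.584, stands for 0 reads. Whole reads were recovered from their steps (100% whole to a tolerance of 0.001) and used for depth, shares and limma voom. Their number sets the precision, as counting error only, since no molecular identifiers were used. The deposited scaling implied effective library sizes of 0.881 to 1.61 times the reads in genes in the deep libraries. In the shallow ones the factor was 0.690 to 0.904. These factors matched TMM (trimmed mean of M values) factors computed from the recovered reads.

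Genes reaching a CPM above 1 in 3 or more libraries entered limma 3.58.1 (R 4.3.3; intensity trend, two-sided, Benjamini-Hochberg over 12329 genes at 0.05), with genotype and letter as terms. A model of 4 groups gave sets a and b and their difference. Libraries were divided by an Rn45s share over 50%. Members, lists, library groups and most alternatives were chosen with earlier results of these data known, and some alternatives after seeing these results. Named genes were fixed core subunits and isoforms, up to 4 per complex with the smallest p by genotype, up to 2 per complex and direction with the largest library group difference, genes below the filter and those that passed; 1 of them is not reported here. Alternatives covered filter, prior count, scaling, terms, replicate block, variance model, weights and libraries left out. edgeR was planned but not run, because the deposited unit is a log2 value, and limma voom took its place. Shared sequence was counted as exact matches of 32 bases between GENCODE M21 transcripts for 98.1% of tested genes and all 74 tested subunit genes. The fits were tested on simulated data. Python 3.11.15 was used otherwise.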

Additional observations from a re-analysis of the deposited data

Results flagged for a closer look

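Of 90 groups of 4 libraries checked, 3 held a library far from the other 3 by Dixon's test at its critical value for 4 samples, where chance gives about 1 in 20 groups. Ndufa12 was at -0.6622 log2 CPM in wild-type 4-b, 1 read, and at 1.47 to 1.84 in the other wild-type libraries of set b. Ndufs3 was at 5.348 log2 CPM in wild-type 3-b, the library with the fewest reads, and at 5.94 to 6.05 in the other wild-type libraries of set b. The median log2 CPM of the 4 complex II genes was 4.954 in Il1rn-/- 4-b and 5.53 to 5.54 in the other Il1rn-/- libraries of set b.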

How the results depend on the processing

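No subunit gene was called by genotype over all libraries, or within the deep or the shallow ones, under any alternative run. With the library group in place of the letter, 37 differences were negative, and in the deep libraries alone 7, with medians of 0.18 over all members, 0.18 in complex I, 0.19 in II and 0.18 in IV. Leaving out each library in turn gave 49 to 61 negatives, medians of -0.27 to -0.06 over all members, -0.25 to -0.06 in complex I, -0.20 to -0.03 in II, -0.13 to 0.02 in III, -0.37 to -0.13 in IV and -0.34 to -0.11 in V. Under the library group term it gave 12 to 57 negatives and medians of -0.14 to 0.07, 23, 26, 28, 31, 32, 33, 35 and 37 among the counts. In the deep libraries it gave 5 to 44 negatives (6, 7 and 29 among them) and -0.04 to 0.31, and in the shallow ones 53 to 64 and -0.39 to -0.13. In set a it gave 14 to 62 negatives and -0.17 to 0.22. In set b it gave 0 to 3 called, 51 to 66 negatives and -0.45 to -0.16. Where 3 were called, 0.917% of all genes were called higher and 0.949% lower. For the difference between sets it gave 43 to 63 negatives and -0.59 to -0.10. Between letters it gave 19 called (5.31% of all genes higher and 5.68% lower) to 39 called (12% and 15.3%), 8 to 12 negatives and 0.37 to 0.62. With the library group added, where the letter rests on Il1rn-/- 3-b and 4-b, 0 were called (0.0487% of all genes in each direction) and 4 negative. Between library groups it gave 31 to 46 called, 55 to 63 negatives and -0.60 to -0.33. The share of all genes called in those fits is not given here, so that range of counts is not a result about the subunits. Within Il1rn-/- set b 8 were called (6.07% of all genes lower and 5.99% higher) and 38 negative with a median of -0.047.

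The genotype difference of single genes turned sign as follows. In the deep libraries alone it was 0.25 for Atp5g1, 0.23 for Atp5g2, 0.16 for Atp5g3, 0.070 for Atp5h, 0.13 for Atp5l, 0.28 for Cox4i1, 0.20 for Cox5b, 0.16 for Cox6a1, 0.24 for Cox6b1, 0.18 for Cox7a2, 0.56 for Cox7a2l, 0.011 for Cox7b, 0.11 for Cox8a, 0.024 for Ndufa1, 0.19 for Ndufa4, 0.19 for Ndufb3, 0.51 for Ndufb4, 0.00060 for Ndufs3, 0.053 for Ndufv1, 0.28 for Ndufv2, 0.045 for Sdhb, 0.27 for Sdhc, 0.30 for Sdhd, 0.27 for Uqcrb, 0.080 for Uqcrc1, 0.0025 for Uqcrfs1. In the shallow libraries alone it was -0.11 for Atp5c1, 0.30 for Atp5s, -1.07 for Cox7c, 0.17 for Ndufa1, -0.096 for Ndufa12, -0.20 for Uqcr10, 0.069 for Uqcrfs1. Under the library group term it was 0.059 for Atp5g2, 0.020 for Atp5l, 0.12 for Cox6b1, 0.034 for Cox7a2, 0.25 for Cox7a2l, -0.38 for Cox7c, 0.085 for Ndufa1, 0.021 for Ndufa4, 0.027 for Ndufv1, 0.13 for Sdhc, 0.065 for Uqcrb, 0.040 for Uqcrc1, 0.030 for Uqcrfs1. Library weights gave -0.29 for Cox7c, 0.0076 for Sdhc, and scaling to reads outside Rn45s -0.063 for Cox7c, -0.063 for Uqcr10. With each library left out in turn it ran from -0.15 to 0.085 for Cox4i1, -0.22 to 0.089 for Cox6b1, -0.22 to 0.14 for Cox7a2, -0.28 to 0.30 for Cox7c, -0.19 to 0.0014 for Ndufa4, -0.69 to 0.63 for Ndufs5, -0.26 to 0.0055 for Sdhc, -0.20 to 0.22 for Uqcr10, -0.11 to 0.017 for Uqcrfs1. Between library groups, Ndufc2 was at 0.076 within Il1rn-/- set b. The cause of these turns was not tested.

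Deviations of same-numbered libraries from their group means had correlations of -0.151 to 0.0005, and those of differently numbered ones -0.14 to 0.204. With 3 or 4 libraries per group these values cannot show whether the numbers pair the libraries. The replicate number as a block gave a median of -0.15 with 0 called and 4 subunit genes at an unadjusted p under 0.05 (5.13% of all genes), and changed no call. The edgeR alternatives were not run. Few reads limit Ndufs5, Ndufa12, Sdhd, Uqcrq and, in the deep libraries, Atp5g2. A library left alone in its group is assumed to vary like the rest.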
